A study of Mus musculus with 96 samples.

Results

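The control cells of a single-cell RNA-seq experiment were divided by whether any read of Ctcf, the gene for the zinc finger protein CTCF, was recorded in them. Of 48 control cells deposited, 47 had at least 3000 genes with a TPM (the share of a cell's transcripts taken by a gene, corrected for its length) above 0, and these formed the comparison, out of 96 cells in the whole series. Ctcf had a TPM above 0 in 36 of them and was listed at 0 in 11. By culture, reads were present in 19 cells and absent in 5 in shLuc #1, and present in 17 and absent in 6 in shLuc #2.

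All cells were EL4, a T-lymphoma line of C57BL/6 mice, infected with viral particles carrying a short hairpin RNA. In shLuc #1 and shLuc #2 (labelled WT1 and WT2, genotype wild type) the hairpin was the luciferase control, so the control cells had also been infected and sorted for the GFP of the vector. In shCTCF #1 and shCTCF #2 (labelled CTCFKD1 and CTCFKD2) it was directed at Ctcf. Those 48 knockdown cells, 36 with and 12 without Ctcf reads, played no part in the choice of the control cells and served as separate values. The cultures numbered #1 came from an initial experiment and those numbered #2 from a second knockdown. Each culture was captured on its own microfluidic circuit of the Fluidigm C1 system, so culture and circuit cannot be told apart, and cells of a culture are not independent replicates. The study removed wells with no cell or a pair of cells and kept 24 cells of the highest quality per circuit.

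CTCF binds an insulator motif and, together with the cohesin ring, holds chromatin loops and the borders of topological domains. A dividing cell makes the replication genes of the G1/S transition first, then the G2/M genes for condensing, aligning and separating chromosomes, and destroys many of these messengers and proteins after division. In T cells the same genes mark the proliferating state, while the T-cell receptor complex is made throughout. A single cell captures part of its messengers, so that a gene with few copies may be missed where it is expressed.

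By median difference in the shLuc cultures, the gene lists of the cell cycle stood highest. The 200 bases before the RefSeq start (GRCm38.p6) of Ctcf and of the 6 named genes highest by limma statistic are therefore shown, 5′ to 3′ on the strand of the gene. Capitals mark 2 motifs of cell cycle promoters, on either strand: the cell cycle homology region, TTTGAA, and the CCAAT box, CCAAT. Pdcd1 led the genes that were lower in cells with Ctcf reads and is given for comparison. Mt2, Pttg1 and Pdcd1 held neither motif in these windows. The windows of Pttg1 and Cdca8 lie inside their GENCODE M21 genes, chr11:43420250-43426251 and chr4:124918465-124939311. The bases before the GENCODE starts of these 2 genes were not searched. Part of the Cks1b window, with both of its TTTGAA matches, lies inside its GENCODE gene, chr3:89415472-89418383.
Ctcf, chr8:105636338-105636537, plus strand: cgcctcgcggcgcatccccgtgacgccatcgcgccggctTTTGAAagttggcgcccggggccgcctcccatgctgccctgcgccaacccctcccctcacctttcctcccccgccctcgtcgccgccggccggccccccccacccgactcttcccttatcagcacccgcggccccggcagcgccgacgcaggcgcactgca
Cks1b, chr3:89418292-89418491, minus strand: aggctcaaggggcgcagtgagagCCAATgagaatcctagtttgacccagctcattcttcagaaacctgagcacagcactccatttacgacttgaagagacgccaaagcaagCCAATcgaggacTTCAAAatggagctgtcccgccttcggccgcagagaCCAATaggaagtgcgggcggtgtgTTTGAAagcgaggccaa
Mt2, chr8:94172418-94172617, plus strand: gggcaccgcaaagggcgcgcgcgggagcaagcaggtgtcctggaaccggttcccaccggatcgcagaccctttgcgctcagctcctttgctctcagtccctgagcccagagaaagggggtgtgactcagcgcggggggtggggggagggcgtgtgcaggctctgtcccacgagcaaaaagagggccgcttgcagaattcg
Cdca8, chr4:124936918-124937117, minus strand: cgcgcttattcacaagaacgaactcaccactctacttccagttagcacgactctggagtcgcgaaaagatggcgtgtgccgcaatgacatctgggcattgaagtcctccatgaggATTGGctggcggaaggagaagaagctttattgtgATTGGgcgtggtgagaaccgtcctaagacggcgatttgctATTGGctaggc
Top2a, chr11:99024190-99024389, minus strand: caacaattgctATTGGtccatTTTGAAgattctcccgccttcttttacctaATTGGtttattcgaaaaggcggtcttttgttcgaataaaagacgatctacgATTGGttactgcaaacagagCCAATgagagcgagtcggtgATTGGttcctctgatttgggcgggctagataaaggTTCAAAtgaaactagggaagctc
Pttg1, chr11:43425982-43426181, minus strand: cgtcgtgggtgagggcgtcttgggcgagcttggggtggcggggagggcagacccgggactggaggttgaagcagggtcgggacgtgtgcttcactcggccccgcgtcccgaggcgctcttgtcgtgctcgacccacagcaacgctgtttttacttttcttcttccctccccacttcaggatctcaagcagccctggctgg
Ccnb2, chr9:70421555-70421754, minus strand: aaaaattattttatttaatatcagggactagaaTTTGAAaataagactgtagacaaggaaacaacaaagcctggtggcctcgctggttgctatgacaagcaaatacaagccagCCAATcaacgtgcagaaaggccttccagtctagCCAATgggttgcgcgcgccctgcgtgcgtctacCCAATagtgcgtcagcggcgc
Pdcd1, chr1:94052554-94052753, minus strand: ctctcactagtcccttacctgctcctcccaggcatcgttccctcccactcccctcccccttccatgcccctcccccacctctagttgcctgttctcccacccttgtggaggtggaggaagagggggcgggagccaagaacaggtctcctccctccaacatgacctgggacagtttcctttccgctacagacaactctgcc

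Among 36 genes of the G2/M list, 31 had a promoter entry, and 24 of these (77.4%) held a CCAAT box and 10 (32.3%) a TTTGAA within 200 bases. Over the 27025 genes with an entry outside chromosome 18, the shares were 30% and 12.7%, and over the 8355 genes tested that had an entry they were 33.8% and 7.59%. The E2F octamers TTTGGCGC, TTTCCCGC, TTTGCCGC and TTTCGCGC were found in 7 of 28 promoters of the G1/S list (25%), in 3.09% of those of genes tested and in 1.63% of all. Ctcf held 1 TTTGAA, from 161 to 156 bases before the first RefSeq start listed for it, no CCAAT box and none of the octamers. The GENCODE M21 gene, chr8:105636568-105682922 of the plus strand, begins downstream of that RefSeq start. These matches describe the letters and show no binding.

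The groups were chosen by the TPM of Ctcf in the same cells, and its level is given as a description. In cells with reads, Ctcf ranged from 2.65 to 316.5 TPM with a median of 59.9 in shLuc #1, and from 2.81 to 170.2 TPM with a median of 40.6 in shLuc #2. In the knockdown cells with reads the medians were 14.2 TPM in shCTCF #1 and 42.6 TPM in shCTCF #2. The control values rested on 2 to 126 and on 1 to 96 recovered reads per cell. The cells just inside the rule were shLuc #2 cell 64, with 1 read, and shLuc #1 cell 11, with 2 reads, at 4.95 and 5.93 RPM (reads of a gene relative to all recovered reads of the cell). A count of 0 allowed levels of up to 8.31 to 12.1 RPM in the 5 cells without reads of shLuc #1 and up to 7.40 to 20.96 RPM in the 6 of shLuc #2, so the 2 groups met at this depth and a cell listed at 0 was not shown to lack the messenger. Such limits cover counting error only, since reads without molecular identifiers are not independent molecules. At the median, the cells without Ctcf reads were not sequenced less deeply. Their median depth was 286612 recovered reads against 226076 in shLuc #1 and 230520 against 230477 in shLuc #2.

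**Figure D1:**
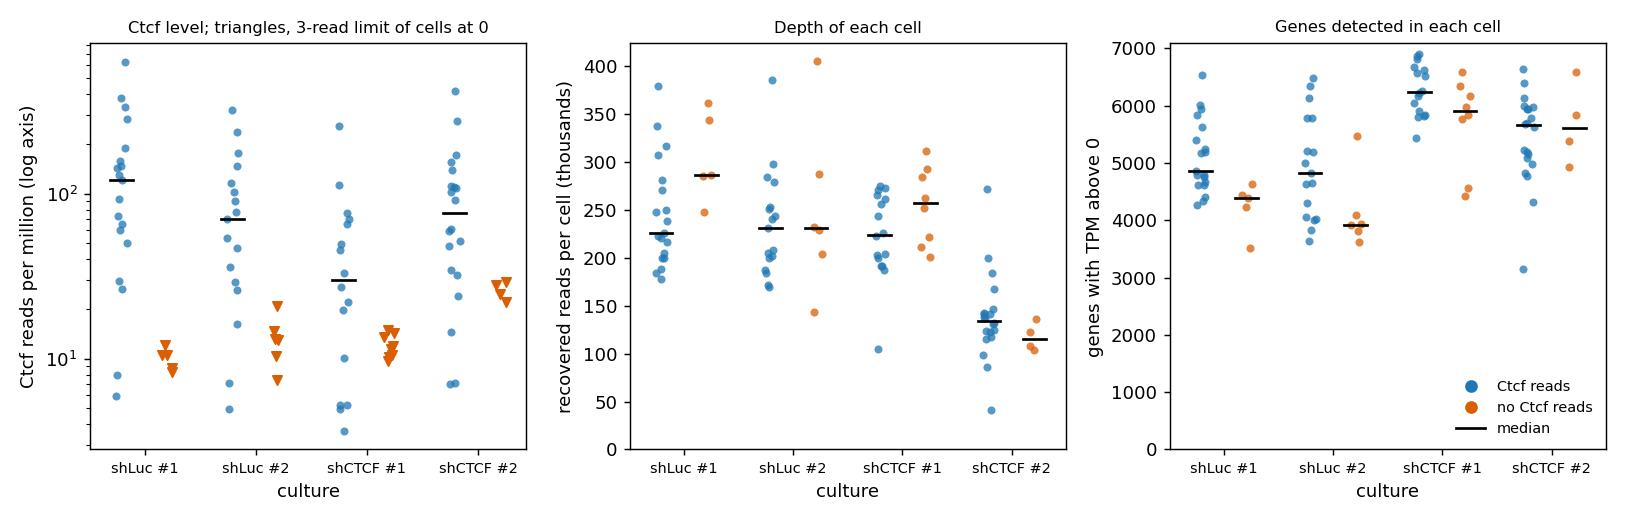
Ctcf level in RPM (log axis; cells without reads are shown at their 3-read limit as triangles), depth in recovered reads (x1000 on the axis), and genes with TPM above 0, one point per cell by culture, with medians as bars. In both shLuc cultures the median number of genes was lower in cells without Ctcf reads and their median depth was not, while single cells overlapped.

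Fewer genes were detected in control cells without Ctcf reads. In shLuc #1 the 5 cells had 3525, 4239, 4384, 4437 and 4634 genes, and the 19 cells with reads had from 4275 to 6534 with a median of 4862. In shLuc #2 the 6 cells without reads ranged from 3630 to 5472 with a median of 3922, and the 17 with reads from 3634 to 6484 with a median of 4823. The groups overlapped in both cultures. The medians differed by 478 and by 901 genes, and the exact two-sided sign-flip permutation test over 2 cultures gave p = 0.5, the smallest it allows. With every cell thinned to 80000 reads, the medians still differed by 658 and 857.5 genes. In shCTCF #1 and shCTCF #2 the differences were 336.5 and 45 genes, and the exact permutation test over 4 cultures again gave the smallest p that 4 cultures allow. Thinning turned the difference in shCTCF #2 to -64 genes, and the exact permutation test then gave p = 0.25. Since the number of genes moved with the presence of Ctcf reads, values after matching are given beside those of all cells for part of the gene lists and leading genes. For this, each cell without reads was paired with 2 cells with reads of its own culture at the least total difference in genes detected, and medians still differed by 259 and 548 genes after matching. The part of this remainder in the results was not tested.

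For each gene, the mean over cells of log2(TPM + 1) was taken in each group, and the difference between cells with and cells without Ctcf reads was computed within each culture. Over 10866 genes tested, the median difference was 0.36 in shLuc #1 and 0.30 in shLuc #2, and 0.18 and 0.09 after matching. In shLuc #1, 65.9% of genes were higher and 31.7% lower in cells with Ctcf reads, and in shLuc #2 61.4% and 35.5%. A difference of at least 1 in size, which is 2-fold on this scale, was reached in both cultures by 1209 genes higher in cells with Ctcf reads (11.1%) and by 232 genes lower (2.14%). After matching these counts were 824 (7.58%) and 371 (3.41%). The differences of the 2 cultures had a Pearson r of 0.21 across genes, and 0.12 after matching, as a description, since genes are not independent and the groups of a culture share its circuit. The limma test over the 2 cultures, with Benjamini-Hochberg adjustment over all genes, called 98 genes higher (0.902%) and 14 lower (0.129%). In no list were 63 of the 98, against 10078 of the 10866 genes tested. Of the 98, 33 were in the G2/M, G1/S and condensin lists, which hold 82 of the genes tested. Of the 14, 0 were in those 3 lists. Limited to the 7439 genes with a mean log2(TPM + 1) above 1, the test called 185 higher (2.49%) and 21 lower (0.282%). The fit took the spread of each gene wholly from the trend over all genes, and no gene was called when the trend was left out, with 1076 and 185 genes at an unadjusted p under 0.05. Matched cells gave 0 calls in limma, with 464 genes higher and 137 lower at an unadjusted p under 0.05, and 18 higher (0.242%) and 15 lower (0.202%) when genes were limited to a mean log2(TPM + 1) above 1. Calls were also 0 without shLuc #2 cell 62 or without cell 65, so each adjusted p below belongs to this set of cells and this fit.

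**Figure D2:**
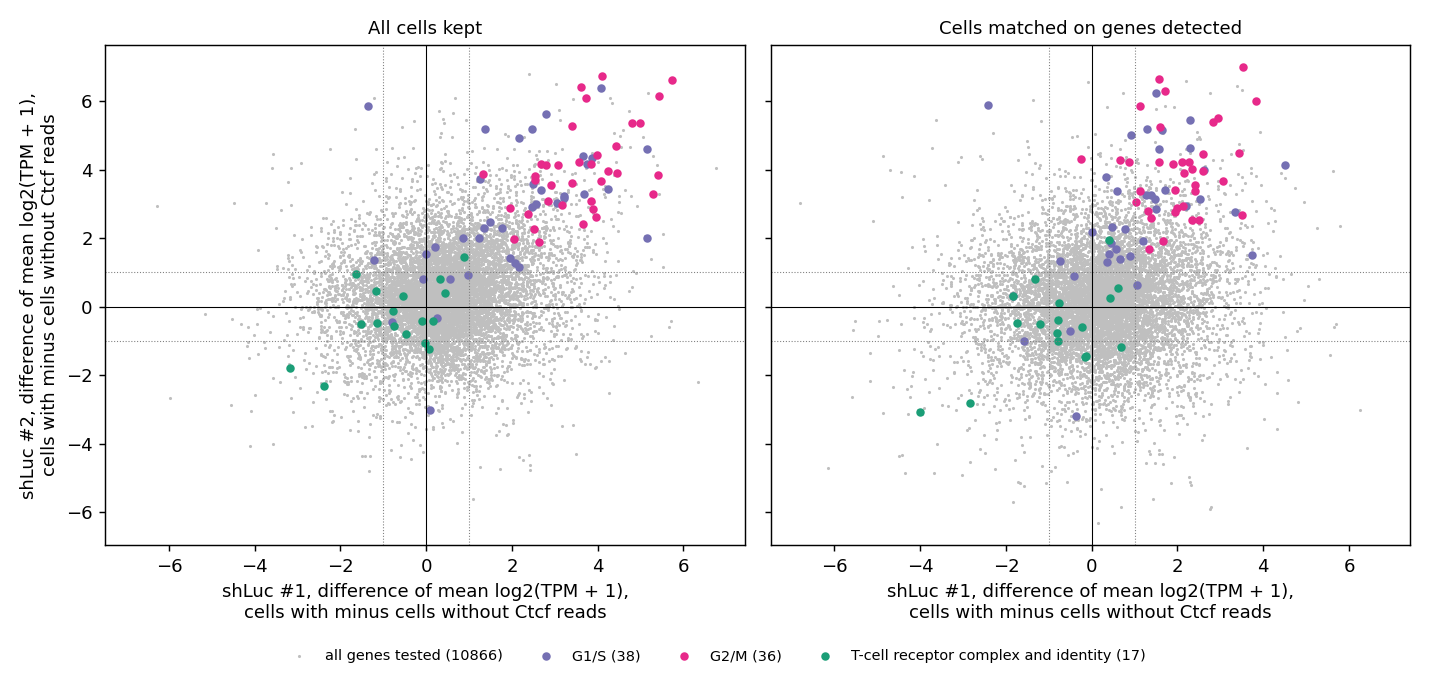
Difference of mean log2(TPM + 1) between cells with and without Ctcf reads in shLuc #1 (x axis) and shLuc #2 (y axis), one point per gene, for all cells and for matched cells; dotted lines mark 2-fold. The 36 G2/M genes lie in the upper right in all cells, and 35 of them do so after matching.

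The G2/M genes were higher in control cells with Ctcf reads. All 36 members of the list were past 2-fold in both cultures, against 11.1% of all genes, with medians of 3.63 in shLuc #1 and 3.86 in shLuc #2 against 0.36 and 0.30 over all genes. Of these 36, 20 were called higher by limma and none lower, against 0.902% of all genes called higher. After matching, 33 of 36 were past 2-fold in both cultures, with medians of 2.04 and 3.98. When each of the 11 cells without reads was left out in turn, 35 or 36 members stayed past 2-fold.

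Cdca8, a subunit of the chromosomal passenger complex, was at 0 TPM in each of the 11 cells without Ctcf reads. It was detected in 13 of 19 cells with reads in shLuc #1, at a median of 403.7 and a highest value of 1677 TPM, and in 14 of 17 in shLuc #2, at a median of 234.7 and up to 2151 TPM. The groups overlapped only at 0. Its difference of mean log2(TPM + 1) was 5.73 and 6.61, with a limma SE of 1.07 and an adjusted p of 2.08e-05, and 3.53 and 6.98 after matching. With 3 reads over the cells without as the limit, its pooled RPM in cells with reads was 208-fold that limit in shLuc #1 and 151-fold in shLuc #2. The limit covers counting error only, not the spread between cells, and reads are not independent molecules. Kif22, a kinesin that pushes chromosome arms to the spindle equator, was likewise at 0 in the 11 cells and detected in 16 of 19 and 12 of 17 cells with reads.

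Top2a, the topoisomerase that untangles replicated chromosomes, stood at 0, 0, 2.83, 3.83 and 3.84 TPM in the 5 cells without reads of shLuc #1. In the 19 cells with reads it ranged from 0 to 1243 TPM with a median of 264.7. In shLuc #2 the cells without reads reached 61.7 TPM with a median of 1.02, and cells with reads ranged from 0 to 1966 TPM with a median of 745.7. The ranges overlapped at their low end, and the differences were 5.44 and 6.14 on the log2(TPM + 1) scale, with a limma adjusted p of 2.08e-05. Matching left differences of 3.83 and 6.01.

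Cks1b, a small subunit that docks substrates to cyclin-dependent kinases, had the largest limma statistic of the named genes. In shLuc #1 it was at 0 in 4 of the 5 cells without reads and at 283.9 TPM in the fifth, while 18 of 19 cells with reads had it, at a median of 722.6 TPM. In shLuc #2, 4 of 6 cells without reads had it, up to 755.2 TPM, and all 17 cells with reads, from 150.4 to 1151 TPM. The differences were 6.76 and 4.05, with a limma SE of 0.855 and an adjusted p of 2.63e-06, and matching left 5.63 and 3.97. Ccnb2, a mitotic cyclin, was at 0 in all 6 cells without reads of shLuc #2 and above 0 in 2 of 5 in shLuc #1, against 13 of 17 and 13 of 19 cells with reads. Pttg1, the securin that holds back separase, was detected in 2 of 5 and 1 of 6 cells without reads, against 17 of 19 and 16 of 17. In shLuc #1 and shLuc #2 the differences of Ccnb2 were 4.09 and 6.73, and 1.57 and 6.64 after matching. Those of Pttg1 were 5.18 and 6.24, and 3.39 and 6.44 after matching.

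Tubb5, a beta-tubulin of the spindle, was detected in every control cell, so its difference did not rest on cells at 0. Its levels were 120.9, 214.5, 379.5, 382.8 and 558.8 TPM in the cells without reads of shLuc #1, and 115.5 to 4144 with a median of 1948 TPM in the cells with reads. In shLuc #2 all 6 cells without reads, at 129.3 to 625.3 TPM, were below all 17 cells with reads, at 648.6 to 5805 TPM. Its differences were 1.80 and 2.42, with a limma adjusted p of 0.000535, and matching left 1.05 and 2.49.

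**Figure D3:**
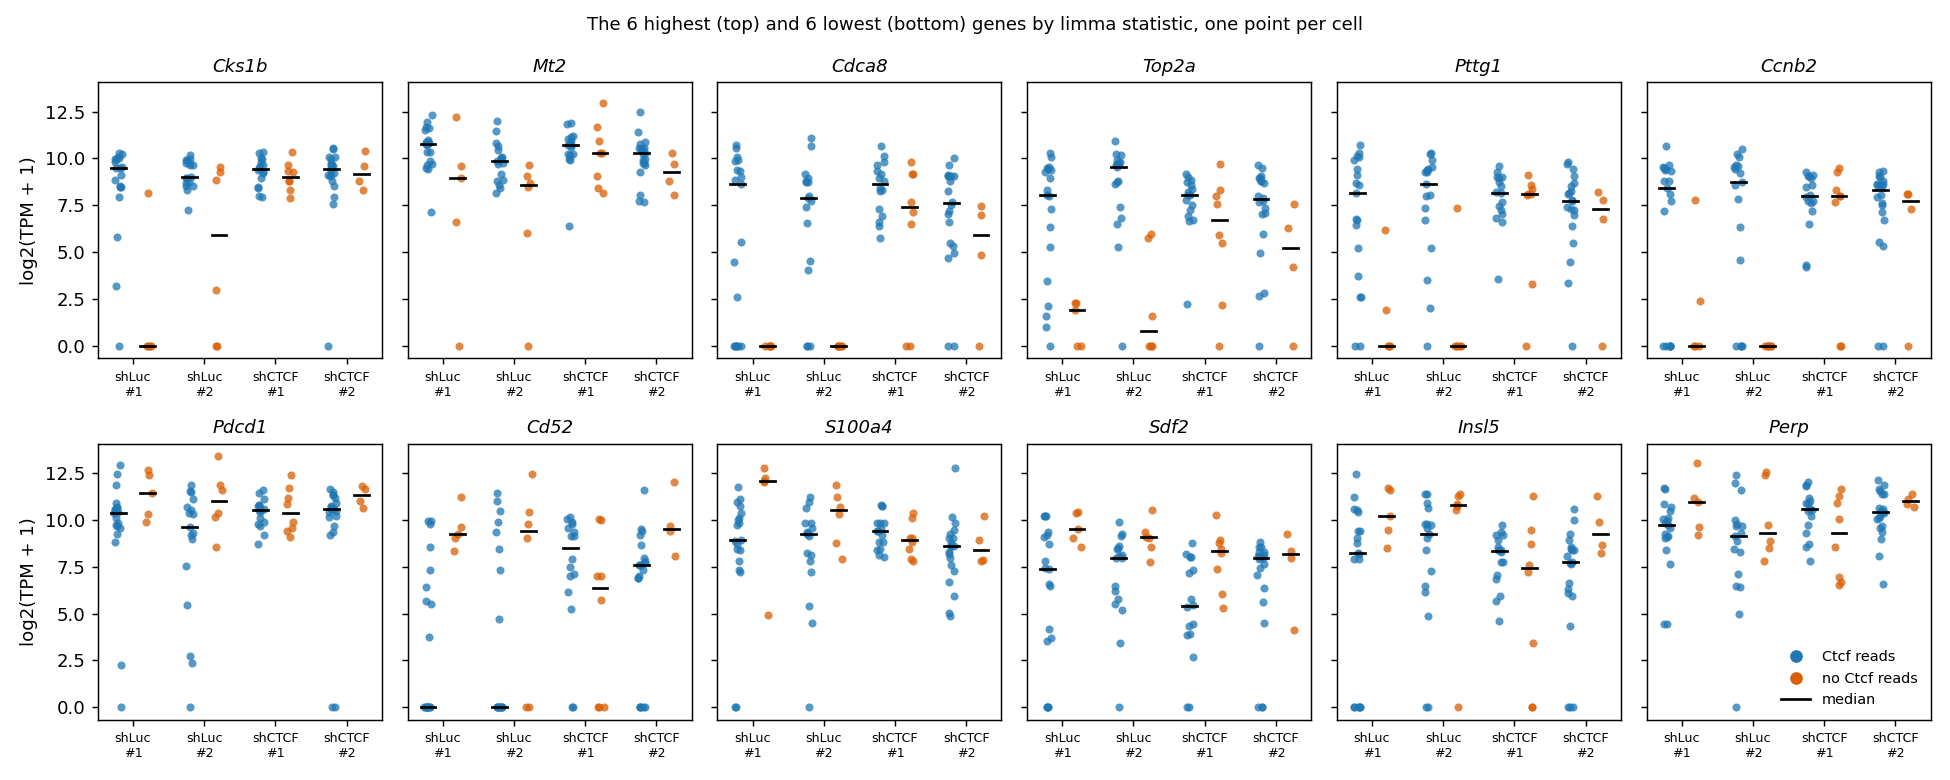
log2(TPM + 1) of 6 named genes at each end of the ranked limma statistics of the shLuc cultures, one point per cell in 4 cultures, with medians as bars. Cdca8 is at 0 in all 11 shLuc cells without Ctcf reads, whereas in the shCTCF cultures most cells without Ctcf reads have it.

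Condensin, the ring that compacts mitotic chromosomes, followed the same direction. All 8 subunits were past 2-fold in both cultures, before and after matching, with medians of 3.28 and 4.01, and 2.03 and 3.58 after matching. By limma, 4 were called higher, against 0.902% of all genes, among them Smc2 and Ncapg2. Smc2, a core ATPase of the ring, was detected in 1 of 5 and 0 of 6 cells without Ctcf reads, against 13 of 19 and 15 of 17 cells with reads, with differences of 3.42 and 6.07. Ncapg2 was detected in 0 of 5 and 2 of 6 cells, against 17 of 19 and 14 of 17.

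The replication genes of the G1/S list were higher in most cases. Of 38 genes, 31 were higher in both cultures against 42.3% of all genes, 27 were past 2-fold, and 9 were called higher by limma, against 0.902% of all genes. Only E2f1 was lower in both, at -0.81 and -0.45, and it was not called. Medians of the list were 2.12 and 2.95, and 0.99 and 2.81 after matching, with 18 genes past 2-fold. Rrm2, the regulated subunit of ribonucleotide reductase, was detected in 2 of 5 and 1 of 6 cells without Ctcf reads, against 16 of 19 and 15 of 17. Its levels in the cells without reads of shLuc #1 were 0, 0, 0, 3.72 and 277.9 TPM, and its median in the cells with reads was 159.7 TPM. Rrm1, the large subunit of the enzyme, differed by 5.15 and 4.60, with a limma adjusted p of 0.00107. Mcm3, a subunit of the replicative helicase, went opposite ways, at -1.35 in shLuc #1 and 5.86 in shLuc #2.

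Cell by cell, the 11 control cells without Ctcf reads all had low levels of the G2/M genes. The mean log2(TPM + 1) over the 36 genes was 0.50, 0.51, 0.79, 0.94 and 0.98 in shLuc #1 and ranged from 0.55 to 1.28 with a median of 0.82 in shLuc #2. In cells with reads it ranged from 0.62 to 8.06 with a median of 4.97, and from 0.82 to 7.98 with a median of 5.22. From 4 to 10 of the 36 genes were detected in each cell without reads, whereas 28 and 30 were the medians in cells with reads, and the medians after thinning to 80000 reads were 5 and 5 against 26 and 29. The reverse did not hold. In shLuc #1, 4 of 19 cells with reads, and in shLuc #2, 2 of 17, had a level no higher than that of the highest cell without reads. Among the control cells with reads, shLuc #1 cell 3 had 64 Ctcf reads at a G2/M level of 1.10, and shLuc #2 cell 69 had 57 at 0.82. Across cells with reads alone, Spearman's rho of Ctcf RPM with the G2/M level was 0.48 (19 cells) and 0.21 (17 cells), values that share the depth of each cell and are given as a description.

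**Figure D4:**
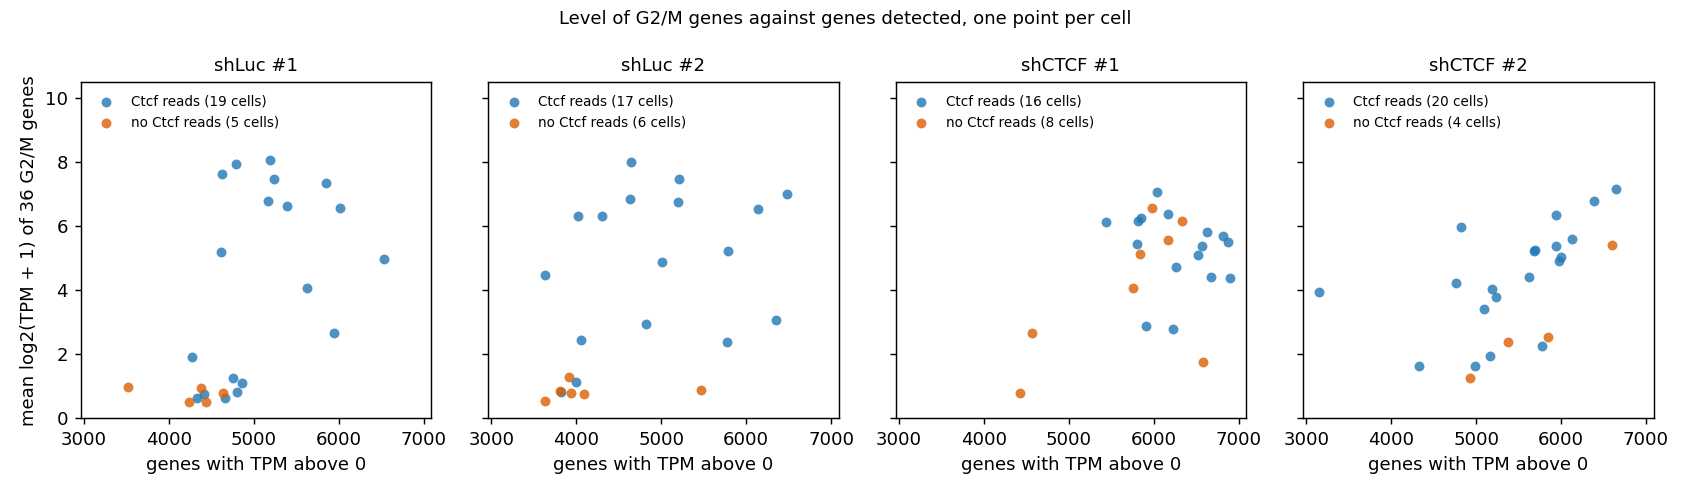
Mean log2(TPM + 1) of 36 G2/M genes (y axis) against the number of genes with TPM above 0 (x axis), one point per cell, in each of 4 cultures. The 11 shLuc cells without Ctcf reads lie at or below 1.28, whereas the 12 such shCTCF cells reach 6.56.

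Matching changed the cells at hand more in one culture than in the other. The 10 matched cells with reads of shLuc #1 had a median G2/M level of 1.18, against 0.79 in the 5 cells without, and ranged up to 7.92. In shLuc #2 the 12 matched cells had a median of 5.59, against 0.82. The matched cells with reads of shLuc #1 thus held both low and high cells.

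By limma, 14 genes were called lower in control cells with Ctcf reads, that is, higher in the cells without. Pdcd1, the gene of the inhibitory receptor PD-1, stood at 945.2, 1280, 2810, 5464 and 6430 TPM in the cells without reads of shLuc #1, against 0 to 7716 with a median of 1332 TPM in cells with reads. In shLuc #2 the cells without ranged from 376.0 to 10752 TPM with a median of 2226, and cells with reads from 0 to 3709 with a median of 795.1 TPM. The ranges overlapped widely, and the differences were -1.85 and -2.57, with a limma SE of 0.354 and an adjusted p of 2.63e-06. Cd52, a lymphocyte surface glycoprotein, was detected in 5 of 5 and 4 of 6 cells without reads, against 9 of 19 and 8 of 17 with reads. S100a4, a calcium-binding protein, was at 29.6, 4186, 4283, 4828 and 6981 TPM in the 5 cells of shLuc #1 without reads, against a median of 482.2 TPM in cells with reads. B2m, the light chain of MHC class I, differed by less, at -0.85 and -0.44. The activation marker Cd69 differed by -0.79 and -3.33, so its value rested mostly on shLuc #2. After matching, all 14 kept their direction in both cultures, where 17% of all genes were lower in both. Past 2-fold lower in both were 11, against 3.41% of all genes. Matched cells are part of the cells in which the 14 were called, so these counts are a description and no separate test.

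T-cell genes as a list did not move as one. Of 17 genes of the T-cell receptor complex and identity list, 9 were lower in both cultures against 12.8% of all genes. Of the others, 3 were higher in both, against 42.3%. Past 2-fold lower were 2, Cd2 and Lcp2, against 2.14%. The medians were -0.55 and -0.43, and -0.78 and -0.51 after matching. Only Cd3g, a chain of the receptor, was called, against 0.129% of all genes called lower. Its differences were -1.51 and -0.50, with a limma adjusted p of 0.00873. Its levels in the cells without reads of shLuc #1 were 1954, 2097, 5219, 6541 and 7222 TPM, against a median of 1666 TPM in cells with reads. Cd3d, Cd3e, Cd3g, Lck, Lat and Ptprc were detected in each of the 47 cells, so both groups carried these markers of a T-cell line. Other markers were not in every cell. Cd247 was detected in 5 of 19 and 3 of 17 cells with reads and in 1 of 5 and 0 of 6 without. Cd5 was detected in 11 of 19 and 11 of 17 against 3 of 5 and 4 of 6, and Cd2 in 16 of 19 and 10 of 17 against 5 of 5 and 5 of 6. Of 14 T-lineage transcription factors, 7 were lower in both cultures, against 12.8% of all genes, 4 were higher, against 42.3%, and none was called.

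Of 16 immediate early genes, which follow receptor stimulation within minutes, 7 were lower in both cultures, against 12.8% of all genes, and 3 higher, against 42.3%. The medians of the list were -0.59 and -0.24, and none was called. Matching moved the medians to -0.78 and -0.85. Nr4a1, an orphan nuclear receptor, stood at 99.4, 105.1, 110.2, 212.0 and 379.5 TPM in the cells without reads of shLuc #1, against a median of 75.4 TPM in cells with reads. In shLuc #2 it ranged from 151.3 to 868.2 TPM with a median of 533.7 in cells without reads, against a median of 148.8 TPM. Its differences were -1.71 and -3.04, with a limma adjusted p of 0.0842. Zfp36, which binds AU-rich messengers and speeds their decay, differed by -2.67 and -3.46, with a limma adjusted p of 0.105.

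The partners of CTCF in loop formation did not pass the test. The 14 genes of cohesin and its loader had medians of 1.21 and 0.16, and of 1.00 and -0.10 after matching. Of these, 7 were higher in both cultures, against 42.3% of all genes, and none lower, against 12.8%. Past 2-fold higher in both were 5, against 11.1%, which were Rad21, Smc1a, Smc3 and Stag2 of the ring and the acetyltransferase Esco2. Rad21, the ring's kleisin, stood at 0, 12.3, 14.8, 76.3 and 99.7 TPM in the cells without reads of shLuc #1, against 0 to 373.6 with a median of 64.7 TPM in cells with reads. Its differences were 1.36 and 2.77, with a limma adjusted p of 0.307, and matching left 0.31 in shLuc #1. Smc3 differed by 3.31 and 1.87 and Smc1a by 1.28 and 1.91, with limma adjusted p of 0.213 and 0.47. The loader subunits Nipbl (0.72 and -0.87) and Mau2 (0.10 and -1.71), the release factors Wapl (0.80 and -0.13) and Pds5a (1.96 and -0.55), and Stag1 (1.12 and -0.65), Hdac8 (0.89 and -0.10) and Cdca5 (-2.24 and 4.59) each differed in sign between shLuc #1 and shLuc #2. Pds5b (1.13 and 0.21) and Esco1 (1.41 and 0.11) were higher in both by less than 2-fold in shLuc #2.

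Among 12 protein partners of CTCF, 6 were higher in both cultures, against 42.3% of all genes, and 1 was lower, against 12.8%. None was called, and the medians were 0.85 and 0.96, and 0.51 and 0.70 after matching. Yy1, a zinc finger factor of enhancer loops, had the only difference past 2-fold in both, 2.80 and 1.46, with a limma adjusted p of 0.347. Maz (0.98 and 2.91), Zfp143 (0.79 and 2.22), Top2b (0.93 and 1.51), Ybx1 (0.91 and 0.85) and Npm1 (0.41 and 0.46) were higher in both. Ddx5 was lower at -0.49 and -0.23, and Chd8 (-0.83 and 1.08), Parp1 (3.93 and -0.70), Gtf2i (-0.06 and 1.27), Taf3 (1.98 and -1.17) and Sin3a (-1.07 and 0.52) differed in sign. The 10 genes nearest to Ctcf on each side on chromosome 8 were taken among genes whose RefSeq symbol had a TPM entry. Genes without such an entry were passed over. Of those taken, 11 in all were tested and none was called. Of the 11, 3 were higher in both cultures, against 42.3% of all genes, and 1 lower, against 12.8%. Acd, the nearest of those taken on the 3′ side at 15233 bases, had differences of -6.29 and 2.94, opposite in the 2 cultures. Cenpt, a kinetochore gene, had differences of 2.64 and 2.09.

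**Figure D5:**
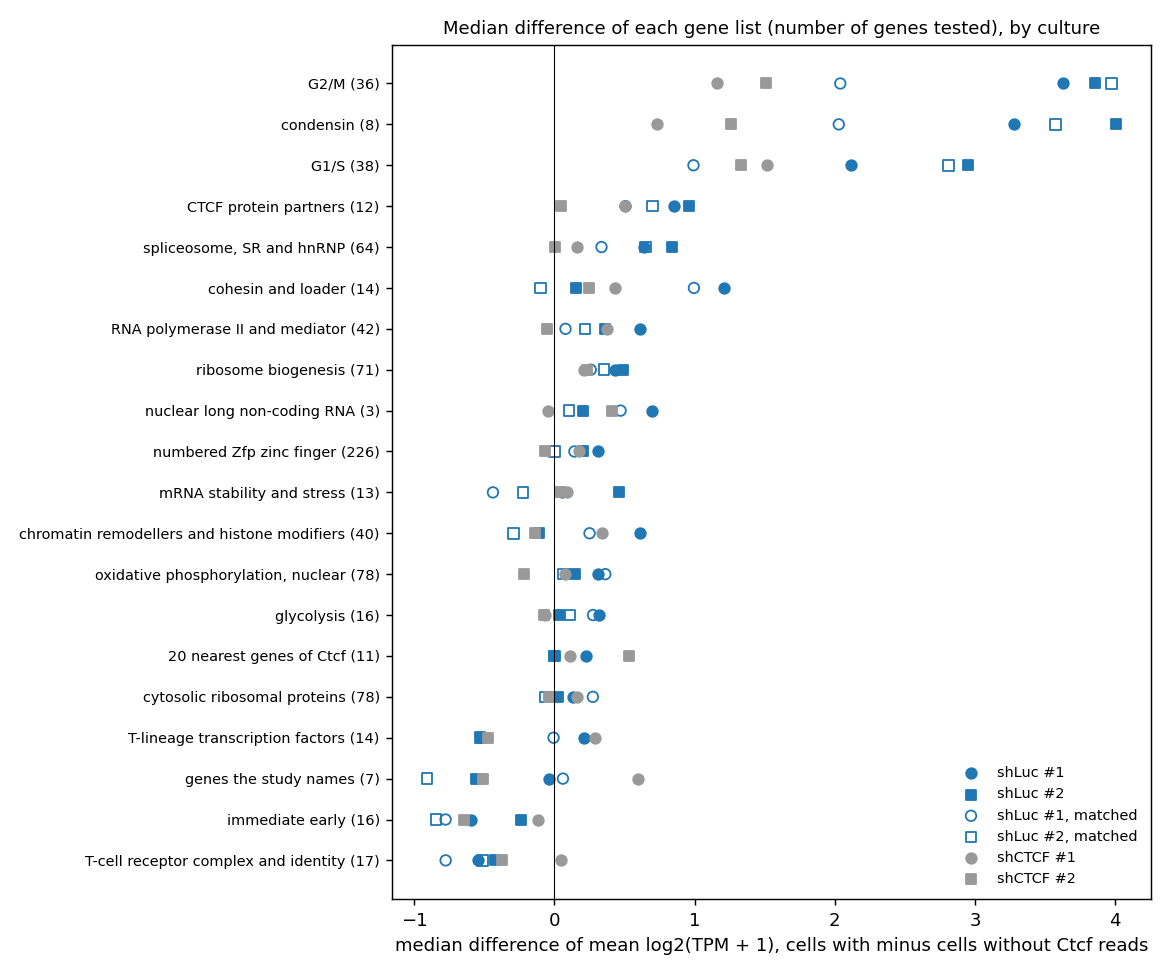
Median difference of mean log2(TPM + 1) between cells with and without Ctcf reads for each gene list (number of genes tested in brackets), in shLuc cultures for all cells and matched cells and in shCTCF cultures. The G2/M, condensin and G1/S lists lie from 0.73 to 4.01 in all 4 cultures, and most other lists between -1 and 1.

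The spliceosome list had 14 of 64 genes past 2-fold higher in both cultures against 11.1% of all genes, and 37 genes higher in both against 42.3%. Its medians were 0.64 and 0.84 (0.34 and 0.65 after matching). Of the 64, 2 were called higher, against 0.902% of all genes, Snrpa1 and Snrpd1, which are snRNP proteins. Of 71 ribosome biogenesis genes, 11 were past 2-fold higher in both cultures, against 11.1% of all genes, and none was called. Nop56 (2.55 and 4.16) and Nop58 (2.68 and 4.06), components of box C/D snoRNPs, led the list. Cytosolic ribosomal proteins had medians of 0.13 and 0.02, glycolysis of 0.32 and 0.03, nuclear oxidative phosphorylation genes of 0.31 and 0.14, and zinc finger genes of the numbered Zfp series of 0.31 and 0.20, with no call in any of them. RNA polymerase II and mediator genes had medians of 0.61 and 0.36, and chromatin remodellers and histone modifiers of 0.61 and -0.11, also with no call. After matching, the medians of these 2 lists were 0.08 and 0.22, and 0.25 and -0.29. Away from these lists, the metallothionein Mt2, which binds metal ions, was higher by 3.06 and 2.83 and Idh3g, a subunit of mitochondrial isocitrate dehydrogenase, by 3.13 and 3.31. Both were called by limma, with adjusted p of 2.08e-05 and 0.0006.

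The genes discussed by the study itself did not pass the limma test. The study took up Egr1 and Junb on these samples, so they are no independent evidence, and Gapdh was its reference gene. Egr1 differed by -1.11 and -0.56, Junb by -0.65 and -2.61, Gata3 by -0.04 and -0.78, Cd28 by -0.48 and -0.80, Thy1 by 0.45 and 0.39 and Cd5 by 0.16 and -0.42. Gapdh differed by 0.20 and 0.43, and centring on the median gene turned its mean difference to -0.01.

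The knockdown cultures gave the same comparison in cells that the choice of groups had not used. The G2/M list had medians of 1.16 in shCTCF #1 and 1.51 in shCTCF #2, with 29 of 36 genes higher in both, against 28.4% of all genes. The G1/S list had medians of 1.52 and 1.33, with 31 of 38 higher in both, and condensin of 0.73 and 1.26, with 6 of 8. Levels of the cells themselves overlapped far more than in the controls. The 8 cells without Ctcf reads of shCTCF #1 had G2/M levels from 0.79 to 6.56 with a median of 4.59, against a median of 5.47 in the 16 with reads. The 4 such cells of shCTCF #2 had 1.26, 2.39, 2.55 and 5.39, against a median of 4.65 in 20 cells.

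Of the 98 genes called higher in the controls, 86 were higher in shCTCF #1 (58.5% of all genes) and 76 in shCTCF #2 (46.5%), and 69 in both (28.4%), with medians of 0.96 and 1.31. Of the 14 called lower, 6 were lower in shCTCF #1 (37.8% of all genes), 13 in shCTCF #2 (48.5%) and 5 in both (19.5%). Over all genes, 13.5% were higher and 3.18% lower in all 4 cultures. Cd52 and Insl5 had opposite signs in the 2 knockdown cultures, at 2.41 and -3.66 and at 1.89 and -2.87. A limma fit over 4 cultures called 0 of 11979 genes, with 967 higher and 211 lower at an unadjusted p under 0.05 and a smallest adjusted p of 0.234. With genes limited to a mean log2(TPM + 1) above 1, this fit called 13 genes higher (0.166%) and 2 lower (0.0255%). The difference of the effect between knockdown and control cultures, tested as an interaction, also gave 0 calls in limma, with 145 and 490 genes at an unadjusted p under 0.05. A smaller effect in the knockdown cells was therefore not shown for any gene.

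The first principal component of 95 cells (6.73% of the variance over 11979 genes, Ctcf left out) was given the sign that rises with the number of genes. Its medians with Ctcf reads were -41.2 and -12.1 in shLuc #1 and shLuc #2, and -88.5 and -100.6 without. In shCTCF #1 and shCTCF #2 they were higher, at 61.5 and 49.4 with reads and 39.6 and 23.5 without. On the second (2.82%), 12 of the 20 genes with the highest loadings belonged to the G2/M list. Cells with Ctcf reads had higher medians on it in every culture, by 59.7 and 62.5 in the shLuc cultures and by 20.1 and 36.4 in the shCTCF cultures. The 5 cells without reads of shLuc #1 were at -60.3, -57.3, -45.4, -17.4 and -2.70, and the 19 with reads from -49.3 to 88.6 with a median of 14.3.

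Variation from cell to cell was compared over 7439 genes with a mean log2(TPM + 1) above 1. The mean variance was 6.34 in cells with and 6.76 in cells without Ctcf reads of shLuc #1, and 7.04 and 7.44 in shLuc #2. The median variance went the other way in shLuc #1, at 5.94 with and 5.73 without reads, and was 6.83 and 6.88 in shLuc #2. In the knockdown cultures the mean variance was 4.53 with and 5.67 without reads in shCTCF #1 and 5.95 and 5.46 in shCTCF #2, so no direction held throughout. In the shLuc cultures, the 69 G2/M and G1/S genes among the 7439 went the opposite way to the mean variance, at 10.5 against 3.40 and 10.7 against 3.64. In the knockdown cultures the variance of these 69 genes was lower with reads, at 4.66 against 8.82 in shCTCF #1 and 7.95 against 8.47 in shCTCF #2. The median CV of log2(TPM + 1) over the 7439 genes was 0.941 against 1.12 in shLuc #1 and 0.964 against 1.14 in shLuc #2. After matching, the mean variances were 6.64 against 6.76 and 7.35 against 7.44, and the median variances 6.16 against 5.73 and 7.07 against 6.88. With 5 and 6 cells in one group these values are imprecise, and they have no test.

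Markers of other cell types were few. The 4 erythroid markers in the table were at 0 in every control cell, of 6 B-cell markers only Cd79a was found, and of 6 fibroblast markers the 3 found summed to at most 195.3 TPM. Of 8 myeloid markers, Itgam and Fcer1g were found, and Csf1r, Lyz2, Cd14 and Mpo were at 0. Fcer1g, the common Fc receptor gamma chain, was detected in 7 of 19 and 4 of 17 cells with Ctcf reads and in 0 of 5 and 4 of 6 without, with values up to 7670 TPM. Myeloid markers summed to 0 to 7670 and 0 to 4.28 TPM with and without reads in shLuc #1, and to 0 to 1059 and 0 to 1650 TPM in shLuc #2. Of 59 genes of loci known to be insulated by CTCF, such as the protocadherin clusters, 3 had a value in any control cell, and 1, Pcdhgc5, could be tested, at -0.55 and 0.13.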

How the data were processed

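Single EL4 cells of 4 cultures (2 shLuc, 2 shCTCF) were sequenced on Fluidigm C1 circuits with SMARTer chemistry. The authors aligned reads with STAR to GRCm38, counted unique reads per gene with HTSeq and deposited TPM for 24057 genes. Wells with a pair of cells had been removed by the study, and no doublet caller was run. Reads per cell were recovered from the steps of the low TPM values and served for depth, limits and thinning only. The depth of the control cells was 143112 to 405404 recovered reads.

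Cells under 3000 genes were left out (1 of 96). A gene entered the test where 2 or more control cells exceeded 1 on the log2(TPM + 1) scale, Ctcf excluded. Group means of log2(TPM + 1) per culture were fitted with limma 3.58.1 (R 4.3.3), with a trend and culture as a block, since both groups of a culture come from the same cells in culture, and adjusted by Benjamini-Hochberg at 0.05. A fold change on the log2(TPM + 1) scale understates the change of low genes. The fit was run on simulated data with known changes, where the prior degrees of freedom stayed finite, so that run does not check the calls of the real fit, in which they were infinite. The replicate is the culture, one from the initial and one from the second knockdown experiment, each on its own circuit. In the fit of the shLuc cultures, p-values set a gene's mean difference against the spread that the trend gives for genes at its level. A gene's own spread between these experiments carried no weight there. Matching took 2 cells with reads per cell without. Alternatives changed the pseudocount, filter, centring, unit, matching and definition of the groups. Fits without a trend for matched cells and 4 cultures, and genes detected in matched cells, were added after seeing the data.

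Named genes were Ctcf, the 10 highest and 10 lowest limma statistics among genes with a mean log2(TPM + 1) above 2 and past 2-fold in both shLuc cultures, called genes up to 10 per direction in each fit, all cohesin and CTCF partner genes, the genes the study names, and 2 members of each other list. Further genes were chosen after their values were seen: Cd3g, B2m, Cd69, Ncapg2, Smc2, Rrm1, Mcm3 and E2f1 where the rule did not take them. Members and gene lists were chosen with earlier results of these data known. Promoters are from RefSeq GRCm38.p6, which matched 8355 of 10866 genes tested, and only the first start listed for a gene was used.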

Additional observations from a re-analysis of the deposited data

Results flagged for a closer look

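In 60 tests for a cell far from the others, each of a single measure in a single group of cells, 5 values stood apart by Dixon's criterion. Chance flags about 1 in 20 such tests. Measures of the same cells are not independent, so the flags are not separate findings. Among the 5 shLuc #1 cells without Ctcf reads, cell 13 had a mean log2(TPM + 1) of the condensin genes of 3.20, against 0.81 to 1.46 in the others. Among the 6 shLuc #2 cells without reads, cell 54 had 5472 genes detected, against 3630 to 4088, and 4737 after thinning, against 3327 to 3623. Its score on the first principal component was -30.2, against -115 to -88.1. Among the 4 shCTCF #2 cells without reads, cell 92 had an immediate early level of 4.89, against 2.97 to 3.24.

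For Cd2, an adhesion receptor of T cells, the difference between cells with and without Ctcf reads was 3.17 higher in the knockdown than in the control cultures on the log2(TPM + 1) scale, and for Ndufb7, a subunit of respiratory complex I, it was lower, at -1.91. Both cultures of a kind went one way and both of the other kind the opposite way. The interaction in limma had an adjusted p of 0.837 for each, so neither passed the test.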

How the results depend on the processing

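The 98 higher and 14 lower calls in the shLuc cultures became 0 and 0 with log2(mean TPM + 1), 26 and 6 with a pseudocount of 10, 55 and 31 with centring on the median gene, 0 and 0 without a trend, 185 and 21 with a mean log2(TPM + 1) above 1, and 8 and 7 with cells as units and genes detected as a term (7 lower with cells as units alone). Leaving out 1 cell without Ctcf reads gave 0 to 83 higher and 0 to 19 lower calls. They were 0 without shLuc #2 cell 62 or 65, and 24, 30, 32, 37, 50 and 63 higher without cells 2, 61, 16, 52, 13 and 67. Both groups of a culture share its circuit, and without the culture as a replicate block 0 genes were called. Matched calls became 18 and 15 with the mean above 1 and 9 and 14 with centring, and those of 4 cultures 13 and 2 with the mean above 1. Leaving out cells or cultures left both at 0 to 0.

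Genes past 2-fold, 1209 higher and 232 lower, became 1939 and 409 with log2(mean TPM + 1), 2016 and 396 with a pseudocount of 0.1, 371 and 76 with one of 10, 782 and 423 with centring, and 371 lower in matched cells; leaving out a cell gave 1179 to 1340 and 214 to 281. The median difference of 0.33 became 0.45, 0.52, 0.14, 0.24, 0.51 and 0.13 with log2(mean TPM + 1), the pseudocounts 0.1 and 10, no filter, the mean above 1 and matching, 0 by construction with centring, and 0.30 to 0.37 with a cell or culture left out. The difference in genes detected, 689.5 as the mean of both cultures, ranged from 478 to 901. The variance difference of -0.42 became -0.11 in matched cells and ranged from -0.45 to -0.37. The causes were not tested.

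The 2 shLuc cultures taken singly gave opposite signs for 19 of 91 named genes, Acd, Cdca5, Parp1, Mau2 and Fcer1g among them. The 20 leading genes could not be among these, since they were chosen for the same direction in both cultures. Leaving single-culture changes aside, none of the 500 alternative values of the leading genes changed sign. Their choice by large statistics in the same cells favours that. Of the 2270 alternative values of all named genes, 40 changed sign. With log2(mean TPM + 1) these were Pds5b (-0.054), Chd8 (-0.60), Top2b (-0.085), Gtf2i (-0.36), Sin3a (0.25), Malat1 (-0.057) and Fcer1g (3.24). With centring they were Stag1 (-0.095), Chd8 (-0.20), Aldoa (-0.091), Gapdh (-0.014), Pdgfrb (-0.14) and Col1a1 (-0.19), with a pseudocount of 10 Stag1 (-0.046) and Chd8 (-0.038), with genes detected as a term Cdca5 (-0.13), Esco1 (-0.49), Chd8 (-0.55) and Gtf2i (-0.0089), and with groups set after thinning Sin3a (0.16). With 1 cell or culture left out, the ranges were -0.87 to 0.72 for Nipbl, -0.83 to 1.08 for Chd8, -1.07 to 0.52 for Sin3a, -0.66 to 2.13 for Asns, -0.55 to 0.13 for Pcdhgc5, -0.19 to 0.61 for Thy1, -0.63 to 0.60 for Cd5 and -0.48 to 0.11 for Itgam. Depth limits the Ctcf rule itself, as cells at 0 could hold up to 20.96 RPM.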
